A study of Mus musculus with 12 samples.

Results

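The 10 genes described here are needed by pigment cells to make melanin, and they were chosen by symbol from a deposited table of 55401 genes. They were Tyr, Tyrp1, Dct, Pmel, Mlana, Mitf, Kit, Slc45a2, Oca2 and Slc24a5, and all 10 had values in every library. RNA-seq had been done on dermis of wild-type (WT) mice and of mice lacking Cthrc1 (Cthrc1-/-), a gene that encodes a secreted protein with a collagen triple helix repeat. Samples came from day 0 and day 7 of an experiment with pairs of wounds of equal size. Both genotypes were sampled on both days, which gives 4 groups of 3 biological replicates, and every animal was labelled as a C57BL/6 mouse of 6 weeks. The labels give no conditional allele, no Cre and no drug, and they do not say whether a library came from 1 animal or from pooled tissue, so p-values measure the spread between these samples.

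Melanin is made by melanocytes inside melanosomes, membrane-bound organelles that mature on amyloid-like fibrils and are passed on to neighbouring keratinocytes. Tyrosinase, encoded by Tyr, catalyses the first and rate-limiting step, and the related enzymes encoded by Tyrp1 and Dct act further along the path to black eumelanin. In the truncal skin of black mice, pigment is made in the bulb of growing (anagen) hair follicles and stops when growth ends.

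Upstream sequences are shown because several of these genes share a short element known as the M-box, which the transcription factor MITF binds. The letters searched were TCATGTG on either strand, in the 250 bases before each start in the RefSeq table on GRCm38.p6. That table held 7 of the 10 genes, namely all but Pmel, Mlana and Slc45a2. These letters were present before 4 of these 7 genes, against 3.72% of 27025 genes with a window of the same length. They are the core of the M-box, and its flanking bases were not searched. A shorter search for CATGTG, which lies within the first motif, added Oca2 and matched 13.8% of all genes. No match was found before Kit or Mitf, which says only that these letters are not in those windows. In the sequences below the capitals mark the match, read 5′ to 3′ on the strand of the gene. The Tyr stretch is at chr7:87493513-87493569 on the minus strand and the Tyrp1 stretch at chr4:80834155-80834183 on the plus strand. The Dct stretch is at chr14:118052356-118052432 on the minus strand. The Slc24a5 stretch at chr2:125068079-125068123 and the Oca2 stretch at chr7:56239538-56239613, both on the plus strand, hold the match on the opposite strand.
Tyr: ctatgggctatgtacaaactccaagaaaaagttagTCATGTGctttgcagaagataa
Tyrp1: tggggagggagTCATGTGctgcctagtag
Dct: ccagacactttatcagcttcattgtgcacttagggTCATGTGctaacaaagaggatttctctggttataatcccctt
Slc24a5: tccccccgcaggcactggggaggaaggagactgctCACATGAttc
Oca2: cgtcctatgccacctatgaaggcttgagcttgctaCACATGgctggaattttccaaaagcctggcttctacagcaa
In Tyr the match ends 15 bases before the RefSeq start, in Tyrp1 40 bases and in Dct 144 bases before it. By the GENCODE M21 annotation Tyrp1 starts at 80834123, so its match lies inside the gene there. Dct has another match on the opposite strand, 225 bases before the start. A match is a description of the letters and was not tested as a binding site.

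Total counts ranged from 48329668 to 76938132 per library. Cthrc1, the targeted gene, had between 1813 and 11678 counts in the 6 WT libraries and at most 15 in the 6 Cthrc1-/- libraries. Fibroblast markers were abundant, as the label dermis implies, with a summed level of 7 genes of 4842 to 6468 FPKM in WT day 0 and 3546 to 5280 FPKM in WT day 7 (fragments counted per kilobase of gene length and per unit of library size). The sum was lower in Cthrc1-/-, at 350 to 2413 FPKM on day 0 and 2211 to 3471 FPKM on day 7. Keratins and other genes of the interfollicular epidermis were abundant too, with a sum between 2247 and 9403 FPKM, so epidermal RNA was present as well. Replicates resembled each other less in some groups than in WT day 0, and the pairwise correlation of log2 values was as low as 0.880 in Cthrc1-/- day 0 and 0.882 in WT day 7. Counts of called genes are therefore also given without Cthrc1-/- day 0 replicate 3 and WT day 7 replicate 1.

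Levels of the 3 enzymes of melanin synthesis were low in all WT day 0 libraries and varied widely in the other groups. Tyr (chromosome 7, 87424771 to 87493512, minus strand) was at 0.196, 0.0682 and 0.0767 FPKM in WT day 0 replicates 1 to 3. In Cthrc1-/- day 0 it was at 0.498, 0.962 and 3.89 FPKM, in WT day 7 at 1.94, 5.69 and 5.16 FPKM, and in Cthrc1-/- day 7 at 3.15, 1.36 and 6.23 FPKM. Every one of those 9 libraries lay above the highest WT day 0 library, and the 3 groups overlapped one another. In bulk tissue, fewer cells of a type and less RNA per cell cannot be told apart, so these levels do not count melanocytes.

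Dct (chromosome 14, 118012790 to 118052244, minus strand) encodes dopachrome tautomerase and was measured at 3.53, 2.77 and 3.88 FPKM in WT day 0. It stood at 10.7, 9.27 and 25.6 FPKM in Cthrc1-/- day 0, at 15.3, 35.5 and 38.1 FPKM in WT day 7, and at 24.3, 17.2 and 38.9 FPKM in Cthrc1-/- day 7. WT day 0 was again below all other libraries, but Dct kept a level there that Tyr did not have. Tyrp1 (chromosome 4, 80834123 to 80851719, plus strand) encodes tyrosinase-related protein 1, which stabilises tyrosinase. Its levels were 2.14, 1.94 and 0.991 FPKM in WT day 0 and 1.19, 7.08 and 29.4 FPKM in Cthrc1-/- day 0. They were 6.96, 20.5 and 18.7 FPKM in WT day 7 and 11.3, 5.79 and 18.3 FPKM in Cthrc1-/- day 7. Unlike Tyr and Dct, Tyrp1 in Cthrc1-/- day 0 replicate 1 lay within the WT day 0 range, while replicate 3 had the highest Tyrp1 level of all 12 libraries.

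Of the melanosome proteins, Pmel had the highest mean level of the 10 genes and Mlana was close to Dct. Pmel (chromosome 10, 128704195 to 128720238, plus strand) encodes the protein that forms the fibrils on which melanin is laid down. Its levels were 4.54, 3.69 and 5.17 FPKM in WT day 0 and 12, 13.0 and 48.6 FPKM in Cthrc1-/- day 0. On day 7 they were 23.5, 60.9 and 58.5 FPKM in WT and 35.9, 20.4 and 75.2 FPKM in Cthrc1-/-. Pmel thus had a steady low level in WT day 0 and no overlap of that group with any other. Mlana (chromosome 19, 29697824 to 29708634, plus strand), also called MART-1, encodes a melanosome membrane protein that takes part in the maturation of PMEL. Mlana was at 2.62, 3.12 and 2.84 FPKM in WT day 0 and at 6.75, 7.11 and 36.0 FPKM in Cthrc1-/- day 0. It was at 12.6, 35.9 and 24.9 FPKM in WT day 7 and at 19.8, 9.64 and 46.3 FPKM in Cthrc1-/- day 7, the same order of libraries within each group as for Slc45a2.

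The 3 melanosome transporters were at or near 0 in WT day 0. Slc45a2 (chromosome 15, 11000721 to 11029233, plus strand) encodes a transporter of the melanosome membrane whose loss lightens the coat in underwhite mice. It was at 0.0215, 0.0291 and 0.0232 FPKM in WT day 0, from 4, 8 and 4 counts. Levels were 0.389, 0.478 and 2.46 FPKM in Cthrc1-/- day 0, 1.45, 4.29 and 3.19 FPKM in WT day 7, and 2.18, 0.861 and 5.27 FPKM in Cthrc1-/- day 7. Slc24a5 (chromosome 2, 125068124 to 125088677, plus strand) encodes a potassium-dependent sodium/calcium exchanger of pigment cells. It was at 0.135 and 0.277 FPKM in WT day 0 replicates 1 and 2 and had no count in replicate 3. It was at 0.840, 1.18 and 6.41 FPKM in Cthrc1-/- day 0, at 2.28, 9.63 and 7.90 FPKM in WT day 7, and at 5.69, 2.58 and 9.92 FPKM in Cthrc1-/- day 7. As with Slc45a2, the lowest level outside WT day 0 was that of Cthrc1-/- day 0 replicate 1. Oca2 (chromosome 7, 56239760 to 56536518, plus strand), the pink-eyed dilution gene, encodes a protein of the melanosome membrane that raises its pH. It had 0 counts in all 3 WT day 0 libraries, and 4, 81 and 315 counts in Cthrc1-/- day 0. Counts were 288, 659 and 578 in WT day 7 and 411, 43 and 814 in Cthrc1-/- day 7. Against a floor of 3 counts per library, mean Oca2 was at least 51.2-fold higher in Cthrc1-/- day 0 and at least 149-fold higher in WT day 7 than in WT day 0. The first of these means rested mostly on replicate 3.

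Mitf and Kit, which regulate pigment cells but are not confined to them, followed other courses. Mitf (chromosome 6, 97807052 to 98021349, plus strand) encodes the transcription factor that activates most of the other genes described here in melanocytes, and it is also made in mast cells and macrophages. Mitf was at 5.89, 6.19 and 6.20 FPKM in WT day 0 and at 4.44, 5.41 and 3.84 FPKM in Cthrc1-/- day 0. It was at 3.26, 4.98 and 5.31 FPKM in WT day 7 and at 4.99, 4.20 and 4.53 FPKM in Cthrc1-/- day 7. Mitf was therefore highest in the group where the enzymes and transporters were lowest, and no library of another group reached the WT day 0 range. Kit (chromosome 5, 75574916 to 75656722, plus strand) encodes the receptor tyrosine kinase for stem cell factor, on which melanocytes and mast cells both depend. Its levels were 0.732, 0.583 and 0.524 FPKM in WT day 0 and 1.19, 2.28 and 5.51 FPKM in Cthrc1-/- day 0. They were 2.33, 2.47 and 2.41 FPKM in WT day 7 and 2.77, 2.55 and 2.83 FPKM in Cthrc1-/- day 7. Kit varied little within either day 7 group, unlike the enzymes in the same libraries.

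**Figure D1:**
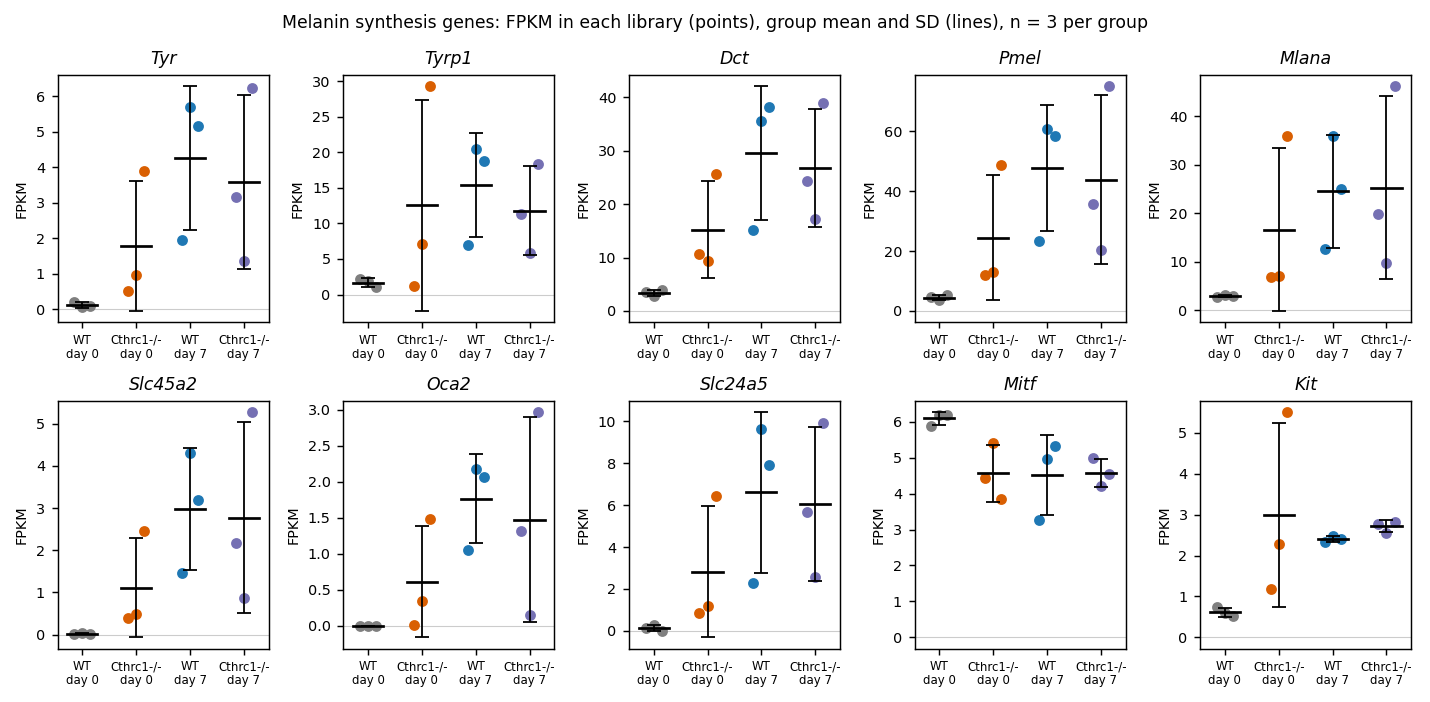
FPKM of each of the 10 genes in the 12 libraries, with each point 1 library, horizontal bars the group means and error bars the SD (n = 3). WT day 0 lies below the other groups for all genes but Mitf, with an overlap for Tyrp1 only, and Mitf is highest in WT day 0.

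On day 0, 4 of the 9 genes tested were higher in Cthrc1-/- than in WT dermis, namely Slc45a2, Tyr, Kit and Dct. Calls were made at an adjusted p under 0.05 from edgeR's quasi-likelihood test, adjusted over all 14313 genes with a mean of at least 1 FPKM. Of those genes 5.78% were called in either direction, 3.51% higher and 2.26% lower. Oca2, with a mean of 0.963 FPKM, did not pass this filter. Tyr, Kit, Slc45a2 and Slc24a5 had means under 1 FPKM in WT day 0 and passed only through the groups where they were higher. The count of 4 called genes is therefore not independent of the filter. Read in FPKM, 8 of the 10 genes had Cthrc1-/- day 0 wholly above WT day 0, where 21.5% of all tested genes did, and Mitf lay wholly below, where 19.8% did.

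Mean Slc45a2 was 0.0246 ± 0.0040 FPKM in WT day 0 and 1.11 ± 1.17 FPKM in Cthrc1-/- day 0 (SD, n = 3). The log2 change was 5.18 (SE 0.947, edgeR adjusted p = 0.0245). For Tyr the means were 0.114 ± 0.0717 and 1.78 ± 1.84 FPKM, and the log2 change was 3.79 (SE 0.858, edgeR adjusted p = 0.0395). Kit rose by a log2 change of 2.13 (SE 0.408, edgeR adjusted p = 0.0288) and Dct by 2.02 (SE 0.431, edgeR adjusted p = 0.0356). The remaining genes did not pass. All 9 tested had an unadjusted p under 0.05, as did 4068 of all 14313 tested genes. Pmel had a log2 change of 2.30 (SE 0.605, edgeR adjusted p = 0.0536) and Slc24a5 one of 4.12 (SE 1.15, edgeR adjusted p = 0.0624). Mlana had 2.37 (SE 0.717, edgeR adjusted p = 0.0746) and Tyrp1 2.71 (SE 0.905, edgeR adjusted p = 0.0923). Mitf was the 1 gene with a lower value in Cthrc1-/-, with a log2 change of -0.52 (SE 0.176, edgeR adjusted p = 0.0962). With the looser filter of 0.1 FPKM, Oca2 had an edgeR adjusted p of 0.0699 and Tyr one of 0.0509. Dermal and muscle markers had lower values in the same comparison, with a median log2 change of -1.67 over 7 fibroblast genes (6 with an unadjusted p under 0.05, 1 called by edgeR), -1.75 over 5 adipocyte genes (3 and 0) and -1.57 over 6 skeletal muscle genes (2 and 0). Whether these lower values reflect tissue makeup, and the part of tissue makeup in the pigment gene changes, was not tested.

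The number of called genes on day 0 depended on single libraries and on the fit. It was 2 without Cthrc1-/- day 0 replicate 3 (Kit and Slc45a2) and 3 when WT day 7 replicate 1 was left out as well (Dct, Kit and Slc45a2). It was 1 without Cthrc1-/- day 0 replicate 2, 8 without replicate 1, and 0 without any 1 of the 3 WT day 0 libraries or when the day 0 groups alone were fitted. The number of all genes called under each alternative is not given here. These counts therefore do not show whether the pigment genes changed more than genes in general. All 4 called changes were positive under each alternative. The call of Tyr held in 5 of 17 alternatives, that of Dct in 10, and those of Kit and Slc45a2 in 11. The size of the changes also rested on Cthrc1-/- day 0 replicate 3, without which the log2 change was 2.61 for Tyr, 3.94 for Slc45a2, 1.44 for Kit and 1.5 for Dct. Without it the genes that had not passed had 1.43 for Pmel, 1.22 for Mlana, 1.23 for Tyrp1 and 2.76 for Slc24a5. Without WT day 0 replicate 1, Tyr had 4.42.

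In WT mice, 7 of the 9 genes tested rose between day 0 and day 7 and Mitf fell. Among all tested genes 13.1% were called, 6.04% higher and 7.10% lower. Of the 7 that rose, Tyr, Kit, Slc45a2 and Slc24a5 had WT day 0 means under 1 FPKM. They passed the filter only through the groups where they were higher, so the count of 7 is not independent of the filter. The WT day 0 libraries also served as the controls of the day 0 comparison between genotypes, so the 2 sets of changes are not independent. In FPKM the day 7 group lay wholly above day 0 for 9 of the 10 genes, against 29.8% of tested genes, and wholly below for Mitf, against 14.1%.

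Slc45a2 reached 2.98 ± 1.43 FPKM in WT day 7, a log2 change of 6.55 (SE 0.990, edgeR adjusted p = 0.00610). Slc24a5 had a log2 change of 5.30 (SE 1.21, edgeR adjusted p = 0.0216), and Tyr, at 4.26 ± 2.03 FPKM, one of 5.00 (SE 0.904, edgeR adjusted p = 0.00966). The genes with a clear level on day 0 changed by smaller factors. Pmel went from 4.46 ± 0.747 to 47.6 ± 21 FPKM, with a log2 change of 3.19 (SE 0.627, edgeR adjusted p = 0.0131). Dct went from 3.39 ± 0.568 to 29.6 ± 12.5 FPKM, with a log2 change of 2.90 (SE 0.446, edgeR adjusted p = 0.00631). Mlana rose by 2.88 on the log2 scale (SE 0.730, edgeR adjusted p = 0.0312) and Kit by 1.79 (SE 0.404, edgeR adjusted p = 0.0207). Tyrp1, with a log2 change of 2.97 (SE 0.914), did not pass at an edgeR adjusted p of 0.0570. Oca2 had an edgeR adjusted p of 0.0297 with the filter of 0.1 FPKM.

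Mitf moved against the other genes, from 6.09 ± 0.175 FPKM on day 0 to 4.51 ± 1.10 FPKM on day 7, a log2 change of -0.64 (SE 0.176, edgeR adjusted p = 0.0414). That call held in 6 of 17 alternatives, with adjusted p between 0.0105 and 0.149. Scaling by total count moved the median of all genes by 0.196 on the log2 scale, and the log2 change of Mitf was then -0.42 (edgeR adjusted p = 0.149), which made the split 8 higher and 0 lower. Without WT day 7 replicate 1 the Mitf value was -0.40 (edgeR adjusted p = 0.143). Tyr, Dct and Slc45a2 were called in this comparison in all 17 alternatives. Slc24a5 had a log2 change of 6.31 without WT day 0 replicate 2, and Tyr one of 5.62 without WT day 0 replicate 1. The count of called genes was 3 without any 1 of the WT day 0 libraries (Tyr, Dct and Slc45a2 each time), 4 without WT day 7 replicate 2, and 9 with WT day 7 replicate 1 and Cthrc1-/- day 0 replicate 3 both left out. For these counts too, the number of all genes called is not given here.

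**Figure D2:**
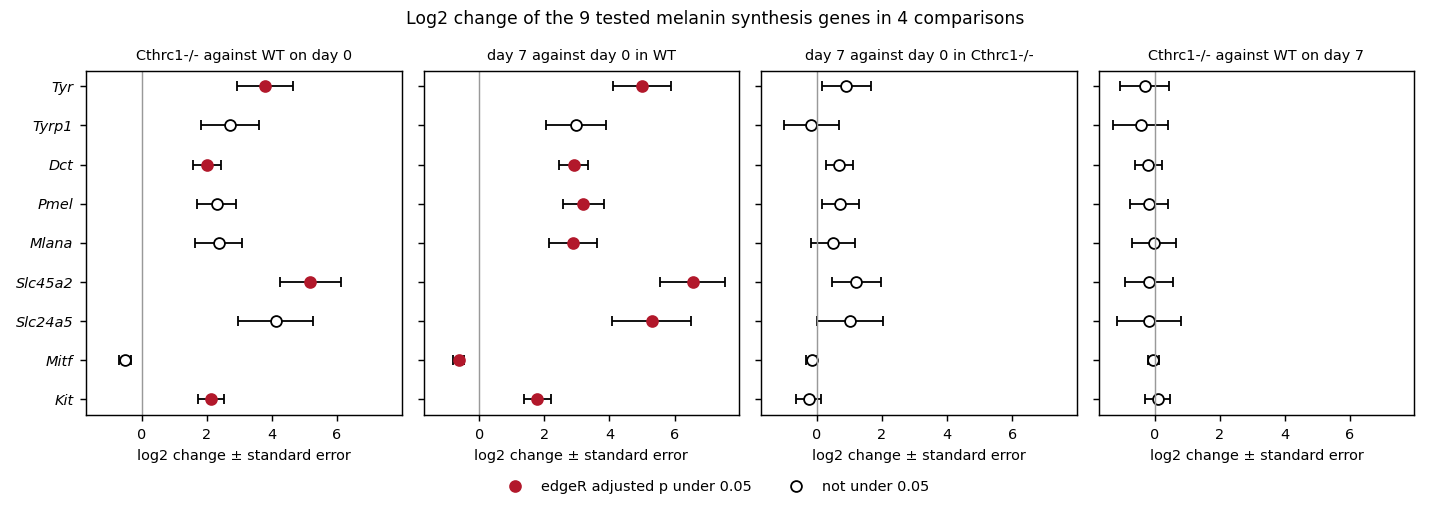
Log2 changes from edgeR (horizontal axis) of the 9 genes tested in 4 comparisons, with bars for 1 standard error on either side and filled points for genes called at an adjusted p under 0.05. Filled points appear in the day 0 comparison of genotypes (4 genes) and in WT day 7 against day 0 (8 genes), and none in the other 2 panels.

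In Cthrc1-/- mice none of the 9 genes tested passed between day 0 and day 7 (edgeR, 0 with an unadjusted p under 0.05, 0 by DESeq2), where 1.46% of all tested genes were called. All 10 genes overlapped between the 2 groups in FPKM, whereas 21.5% of tested genes lay wholly higher and 4.99% wholly lower on day 7. Dct had a log2 change of 0.69 (SE 0.416, edgeR adjusted p = 0.414), with a 95% confidence interval from -0.23 to 1.62. Tyr had 0.90 (SE 0.761, edgeR adjusted p = 0.575), with an interval from -0.79 to 2.59, and Slc45a2 1.21 (SE 0.751, edgeR adjusted p = 0.430). Kit had -0.25, Tyrp1 -0.18 and Mitf -0.16. Cthrc1-/- day 0 held both low and high libraries, such as Pmel at 12 and 48.6 FPKM in replicates 1 and 3. With replicate 3 of that group and WT day 7 replicate 1 left out, Dct was called, with a log2 change of 1.21 (edgeR adjusted p = 0.0454).

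On day 7 the genotypes did not differ detectably in any of these genes (edgeR, 0 of 9 called, 0 with an unadjusted p under 0.05, 0 by DESeq2). The share called among all tested genes was 0.0210%. Log2 changes ran from -0.43 for Tyrp1 to 0.10 for Kit, with adjusted p from 0.996 to 0.999. The 95% confidence interval ran from -1.98 to 1.37 for Tyr and from -1.11 to 0.73 for Dct. Differences of either sign within those limits were not excluded with 3 libraries a group. For Mitf the interval was narrower, from -0.43 to 0.35. Kit was the 1 gene whose Cthrc1-/- values all lay above the WT values, at 2.71 ± 0.143 against 2.40 ± 0.0703 FPKM, where 6.46% of tested genes did so.

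The difference between the genotypes' responses was tested as an interaction, and no gene passed (edgeR, 0 of 9 called, against 0.0140% of all tested genes). Of the 9 genes, 8 had an unadjusted p under 0.05, as did 2164 of all 14313 tested genes. DESeq2 called 5 of the 9, but its share among all genes is not given here. On simulated counts for the day 0 comparison, 26.7% of DESeq2's calls were false, against 7.29% of edgeR's. The interaction was not simulated, and the simulated counts took their spread from edgeR's own estimates. The simulation therefore cannot rank the 2 tools for this result. Slc45a2 had an interaction of -5.34 on the log2 scale (SE 1.18, edgeR adjusted p = 0.171), Tyr one of -4.09 (SE 1.12, edgeR adjusted p = 0.202) and Dct one of -2.21 (SE 0.593, edgeR adjusted p = 0.194). A negative value means a smaller rise in Cthrc1-/- than in WT. Mitf had 0.48 (SE 0.248, edgeR adjusted p = 0.387). Without Cthrc1-/- day 0 replicate 1, 2 genes were called, Kit at -2.40 (edgeR adjusted p = 0.0360) and Slc45a2 at -5.73 (edgeR adjusted p = 0.0492).

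Levels of the pigment genes varied together from library to library. For each gene the log2(FPKM + 0.1) profile over the 12 libraries was compared with the mean profile of the core set, Tyr, Tyrp1, Dct, Pmel, Mlana, Slc45a2, Oca2 and Slc24a5 without the gene itself. Pearson's r was 0.994 for Tyr (Spearman's rho 0.979), 0.991 for Slc45a2 and 0.989 for Pmel, and lowest in the core set for Tyrp1 at 0.929. With group means removed, which leaves differences between replicates, r ranged from 0.886 for Dct to 0.976 for Tyr. Kit followed less closely, at 0.898 and 0.765. Mitf did not follow, at -0.54 over all libraries and 0.140 with group means removed. These are descriptions over 12 libraries that share depth and tissue makeup, and the 4 groups differ in level.

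Other genes with a mean of at least 1 FPKM were ranked by likeness, leaving out placeholder symbols (Gm plus digits, Rik) and genes without a symbol. Among those ranked, Trpm1 had the profile most like that of the 8 core genes (r = 0.993, 12 libraries). Trpm1 encodes a cation channel of melanocytes and retinal bipolar cells. Its level was between 0.0674 and 0.0925 FPKM in WT day 0, between 0.316 and 4.24 FPKM in Cthrc1-/- day 0, between 1.99 and 5.04 FPKM in WT day 7 and between 0.818 and 5.5 FPKM in Cthrc1-/- day 7. The next were Pbx2 at 0.986, a homeodomain factor, Brca1 at 0.978, a DNA repair gene, and Tspan10 at 0.975, a tetraspanin of pigment cells. Troap, a gene of the mitotic spindle, at 0.975 and Crhr1, a receptor for corticotropin-releasing hormone, at 0.974 completed the 6 genes taken. With log2(FPKM + 1) 5 of the 6 were found again, and with 1 library left out between 2 and 6.

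**Figure D3:**
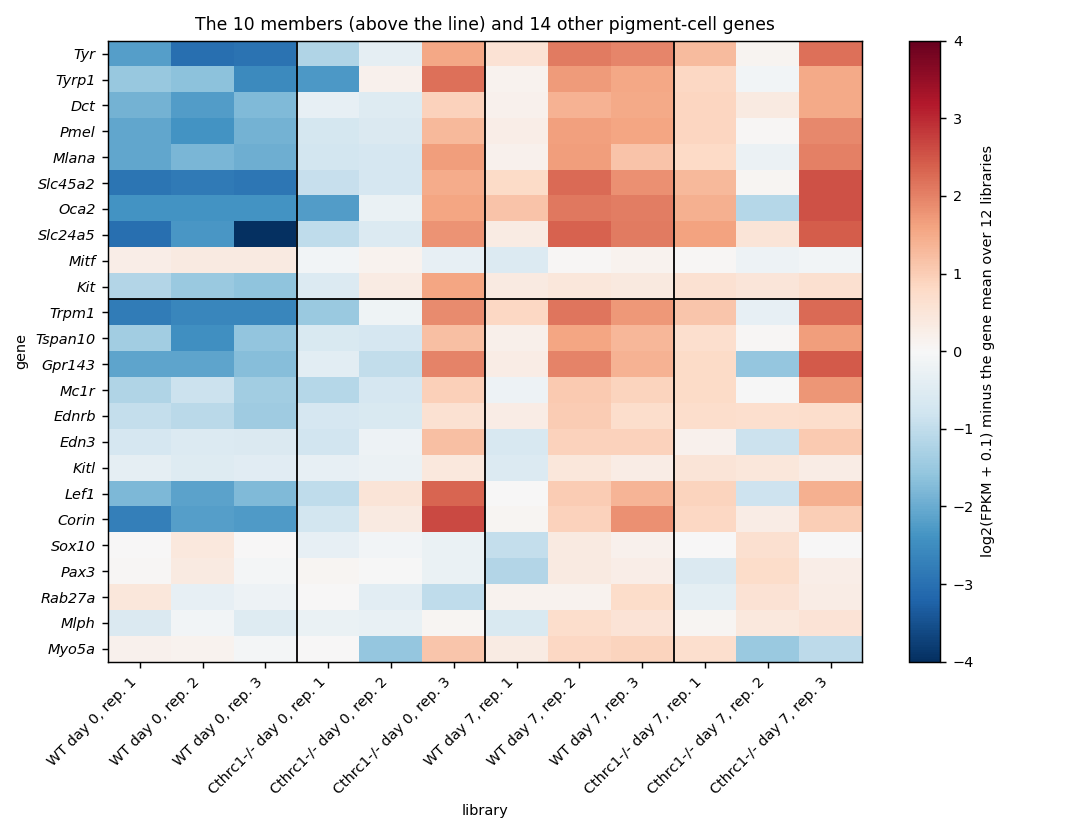
Log2(FPKM + 0.1) of the 10 genes and of other pigment cell genes in the 12 libraries, centred on each gene's mean and coloured from low to high. The WT day 0 columns are low for the enzymes, melanosome proteins and transporters, whereas Sox10, Pax3 and Mitf do not share that pattern.

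Genes that build and move melanosomes in general had small median changes, with most positive in WT day 7 against day 0. Of 34 such genes 28 were tested, and their median log2 change was 0.04 in Cthrc1-/- against WT on day 0 and 0.21 in WT day 7 against day 0, where the medians over all tested genes were -0.05 and -0.0019. On day 0, 16 of the 28 were positive, as were 6644 of all 14313 tested genes. In WT day 7 against day 0, 22 of the 28 were positive, as were 7130 of all tested genes. The medians of the 9 melanin synthesis genes tested were 2.37 and 2.97. Of these 9, 4 passed the filter only through the groups where they were higher, so these medians are not independent of it. On day 0, 2 of the 28 were higher and 1 lower in Cthrc1-/-, where 3.51% and 2.26% of all tested genes were. Trpm1 rose by 4.23 on the log2 scale (SE 0.945, edgeR adjusted p = 0.0386) and Bloc1s2, a subunit of a sorting complex for lysosome-related organelles, by 0.45 (edgeR adjusted p = 0.0494). Mfsd12, which imports cysteine into melanosomes, fell by 1.19 (edgeR adjusted p = 0.0447). With the filter of 0.1 FPKM, Trpm1, Bloc1s2 and Mfsd12 had edgeR adjusted p of 0.0502, 0.0672 and 0.0591 on day 0, so none was called. In WT day 7, 4 were higher and 0 lower, against 6.04% and 7.10% of all tested genes. These were Trpm1 at 5.18 (edgeR adjusted p = 0.0118), Tspan10 at 3.18 (edgeR adjusted p = 0.0208), the melanosome and lysosome channel gene Tpcn2 at 1.09 (edgeR adjusted p = 0.0246) and the adaptor subunit gene Ap1s1 at 0.70 (edgeR adjusted p = 0.0400). Trpm1 and Tspan10 had WT day 0 means under 1 FPKM, at 0.0835 and 0.195. Both passed the filter only through the groups where they were higher, so their calls are not independent of it. Rab27a, which encodes a small GTPase that recruits the motor to melanosomes, and the motor gene Myo5a did not pass in any comparison. Gpr143 and Mlph had means under 1 FPKM and were not tested, and Gpr143 had no count in WT day 0 replicates 1 and 2.

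Among the regulators and signals of melanocytes, the receptor gene Ednrb and the Wnt pathway genes Lef1 and Wnt10b rose in WT day 7, and the lineage factor Sox10 did not pass. Of 22 listed genes 17 were tested, with 2 higher and 0 lower in Cthrc1-/- on day 0, and 5 higher and 1 lower in WT day 7. The shares over all tested genes were 3.51% higher and 2.26% lower on day 0, and 6.04% and 7.10% in WT day 7. On day 0 Corin, a protease of the dermal papilla that acts on agouti signalling, stood 4.06 higher on the log2 scale (edgeR adjusted p = 0.0308). Lef1, a Wnt effector of hair matrix and melanocytes, had 3.11 (edgeR adjusted p = 0.0496). Corin and Lef1 had WT day 0 means under 1 FPKM, at 0.259 and 0.630. Both passed the filter only through the groups where they were higher, so their calls are not independent of it. With the filter of 0.1 FPKM, Corin had an edgeR adjusted p of 0.0384 on day 0 and Lef1 one of 0.0627. In WT day 7 Ednrb, the endothelin receptor of melanocytes, rose by 1.74 on the log2 scale (edgeR adjusted p = 0.00966), Corin by 3.69 (edgeR adjusted p = 0.0172), Lef1 by 2.75 (edgeR adjusted p = 0.0454), the Wnt ligand gene Wnt10b by 2.14 (edgeR adjusted p = 0.0459) and the sheddase gene Adam10 by 0.54 (edgeR adjusted p = 0.0440). Bcl2, a survival gene of melanocyte stem cells, fell by 1.05 (edgeR adjusted p = 0.0205). Sox10, the neural crest factor upstream of Mitf that Schwann cells also make, did not pass, with log2 changes of -0.52 on day 0 and -0.42 in WT day 7 (edgeR adjusted p = 0.270 and 0.344). Mc1r, the melanocortin receptor, had 1.17 and 1.83 (edgeR adjusted p = 0.244 and 0.0787). Kitl, the ligand of KIT, had 0.32 and 0.38, and Edn3 0.83 and 1.0, none of which passed. Pax3, with a mean under 1 FPKM, ranged from 0.140 to 0.817 FPKM over the 12 libraries, and Asip was not analysed here. In the other comparisons no gene of either list was called.

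Markers of growing hair rose in the same comparisons in which pigment genes were called. Of 20 measured anagen follicle genes, 16 were higher in Cthrc1-/- on day 0 (against 3.51% of all tested genes) and 14 in WT day 7 (against 6.04%). Krt25, Krt27, Krt28, Krt71 and Krt73, among others, had WT day 0 means under 1 FPKM. They passed the filter only through the groups where they were higher, so both counts are not independent of the filter. Both comparisons also used the same WT day 0 libraries. The summed level of the 20 genes was 48.8 to 55.9 FPKM in WT day 0, 313 to 14081 FPKM in Cthrc1-/- day 0, 1808 to 4469 FPKM in WT day 7 and 602 to 6041 FPKM in Cthrc1-/- day 7. In Cthrc1-/- day 7 against day 0, where no gene of either set was called, the median log2 change was -0.93 for the hair genes, with 1 of 20 positive, and 0.69 for the pigment genes, with 6 of 9 positive. Library by library the ratio of pigment to hair RNA was not constant. The 8 core genes summed to 158 FPKM per 1000 FPKM of 5 inner root sheath keratins (Krt25, Krt27, Krt28, Krt71 and Krt73) in Cthrc1-/- day 0 replicate 1, to 9.47 in replicate 2 and to 14.9 in replicate 3. In WT day 0, where the 5 keratins summed to at most 3.36 FPKM, the ratio was 15272, 3539 and 4658. In WT day 7 that ratio was 41.7, 49.3 and 46.5, and in Cthrc1-/- day 7 it was 31.0, 123 and 42.0. Cthrc1-/- day 0 replicate 2 thus had abundant sheath keratin, at 4162 FPKM, with pigment genes at only 39.4 FPKM, while WT day 7 replicates kept close to 1 ratio. The part of follicle content in the changes of the pigment genes was not tested.

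The balance among the pigment genes also differed between libraries. Tyr, Slc45a2, Oca2 and Slc24a5 together came to 3.30%, 3.9% and 0.840% of the summed FPKM of Dct, Pmel and Mlana in WT day 0. They came to 5.91%, 10.1% and 12.9% in Cthrc1-/- day 0, to 13.1%, 16.5% and 15.1% in WT day 7, and to 15.4%, 10.5% and 15.2% in Cthrc1-/- day 7. WT day 0 thus kept Dct, Pmel and Mlana RNA, as counted, with little Tyr and transporter RNA. Pmel and Slc24a5 reads may include those of genes on the other strand, as given below. These 2 subsets were formed after the values had been seen, and no test was made. Tyrp1 relative to Dct was least regular in Cthrc1-/- day 0, at 0.112, 0.763 and 1.15, and lay between 0.337 and 0.577 in all day 7 libraries.

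**Figure D4:**
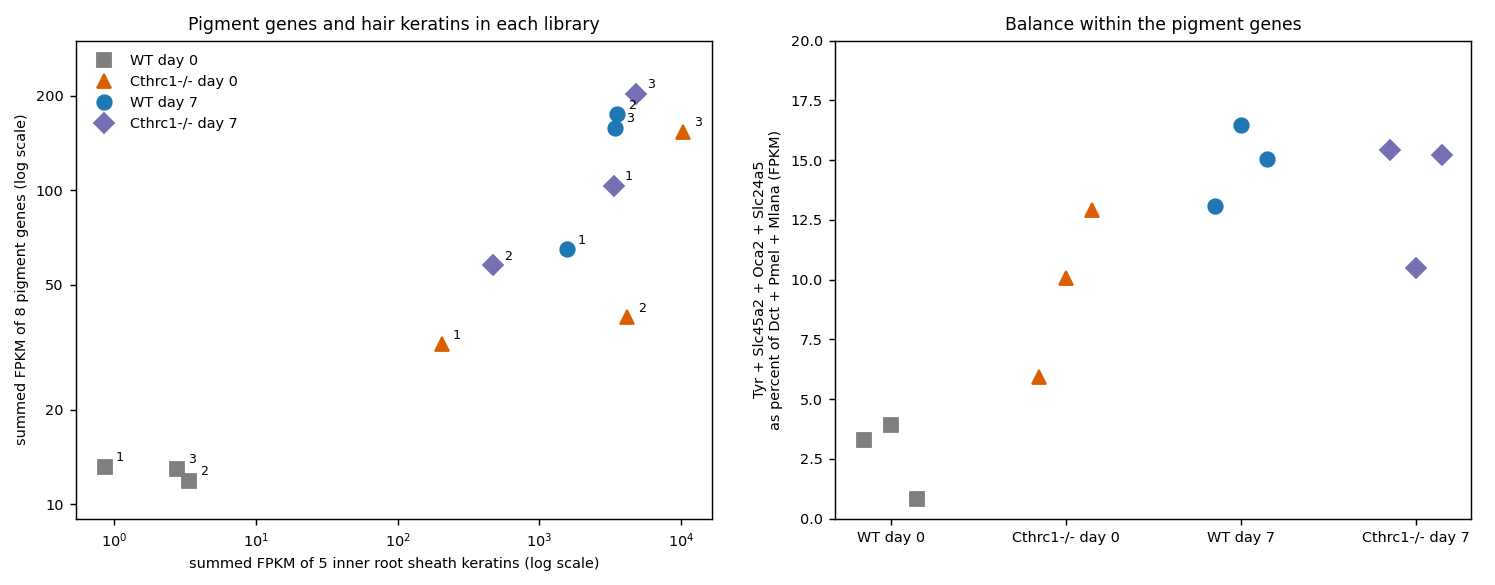
Left, summed FPKM of the 8 core pigment genes against summed FPKM of 5 inner root sheath keratins in each library, both on log scales, with replicate numbers beside the points. Right, Tyr and the 3 transporters as a percent of Dct, Pmel and Mlana in each library. WT day 0 lies lowest on both axes and in the percent, and Cthrc1-/- day 0 replicate 2 has keratin near the day 7 level with pigment genes at 39.4 FPKM.

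Mast cells also make Kit and Mitf, and their markers are given beside Kit for that reason. The summed level of 12 mast cell genes was 49.3 to 61.3 FPKM in WT day 0, 15.4 to 59.1 FPKM in Cthrc1-/- day 0, 80.7 to 219 FPKM in WT day 7 and 58.5 to 146 FPKM in Cthrc1-/- day 7. On day 0 none of the 8 tested mast cell genes was called by edgeR, 1 had an unadjusted p under 0.05, and their median log2 change was -0.52, while Kit rose. In WT day 7, when Kit also rose, 1 mast cell gene was called higher (against 6.04% of all tested genes), with 7 of 8 positive and a median of 1.02. In Cthrc1-/- day 7 against day 0 all 8 were positive with a median of 1.51, and Kit had -0.25. None of the 8 was called by edgeR there, and 4 had an unadjusted p under 0.05, as did 2596 of all 14313 tested genes. Macrophage genes, whose cells make Mitf, summed to 311 to 327 FPKM in WT day 0, 93.6 to 236 FPKM in Cthrc1-/- day 0, 367 to 1320 FPKM in WT day 7 and 478 to 526 FPKM in Cthrc1-/- day 7. Schwann cell genes, whose cells make Sox10, summed to 124 to 186 FPKM in WT day 0, 47.9 to 132 FPKM in Cthrc1-/- day 0, 53.5 to 100 FPKM in WT day 7 and 68.1 to 133 FPKM in Cthrc1-/- day 7. Every gene of these lists had a count in at least 1 library. The part of these cells in the Kit and Mitf values was not tested.

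Some of the genes overlap a gene on the other strand in the GENCODE M21 annotation of GRCm38. Pmel overlaps Cdk2 and Dgka, Slc24a5 overlaps Myef2, and Dct overlaps a transcript with at most 57 counts. The libraries were strand-specific per the labels' protocols, but whether the counting used strand is not given in the sources used here, so reads of Pmel and Slc24a5 may include reads of these neighbours. In WT day 0 Slc24a5 had at most 55 counts while Myef2 had at least 213 in every library. Pmel had 607 to 721 counts in WT day 0, while Dgka had at least 4384 and Cdk2 at least 788 in every library.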

How the data were processed

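Poly(A) RNA from 12 dermis samples was sequenced in strand-specific paired-end libraries, per the labels' protocols. The deposited table gives, per gene and sample, an FPKM and a whole-number count, both made by the authors. Per the submitters' processing notes, cutadapt 1.9, HISAT2 2.0.4, UMI-tools, StringTie 1.3.4d, DESeq2, edgeR and the build GRCm38 were used. The counting step and annotation are not given in the sources used here, nor whether the deposited counts were collapsed on molecular identifiers. All 362093 counts of 0 had a deposited FPKM of 0.0001, taken here as 0. Gene IDs were matched to GENCODE M21 (55141 of 55401). Unused per-sample columns numbered 0.

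Counts were tested with edgeR 4.0.16 in R 4.3.3 (quasi-likelihood, two-sided, TMM scaling, 12 samples in 1 fit, a mean per group), for the 14313 genes that averaged 1 FPKM or more. Adjustment over these genes followed Benjamini and Hochberg, and genes were called under 0.05. Standard errors are the absolute log2 change over the square root of F. Total counts were 48329668 to 76938132, and the floor of 3 counts covers counting error only. The members and lists were chosen with earlier results of these data known. All members were named, as were called genes of the melanosome and regulator lists with 12 others listed in the rule, and the 6 genes most like the core profile. Placeholder symbols (Gm plus digits, Rik) and genes without a symbol were left out of that ranking. Krt85 and Asip were not analysed here. Alternatives were DESeq2 1.42.0, limma 3.58.1, other scalings, filters and fits, division of counts by 4, and samples left out. On simulated counts for the day 0 comparison (14313 genes, 200 changed by a log2 change of 3), edgeR recovered 89% with 7.29% false calls, limma 89.5% with 7.73% and DESeq2 94.5% with 26.7%. The simulated counts took their spread from edgeR's estimates, and no other comparison was simulated.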

Additional observations from a re-analysis of the deposited data

How the results depend on the processing

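The 12 called changes of single genes kept their direction in all 204 alternatives and their call in 147. On day 0, the count of called genes was 8 by DESeq2, 2 by limma on log2(FPKM + 0.1), 0 by limma on log2(FPKM + 1) and 0 when the day 0 groups alone were fitted. With single libraries left out it ranged from 0 to 8, in WT day 7 against day 0 from 3 to 8, in the interaction from 0 to 2, and it was 0 throughout in the other comparisons. DESeq2 called 5 interactions. The share of all genes called under each of these alternatives is not given here. With Cthrc1-/- day 0 replicate 3 and WT day 7 replicate 1 both left out, an alternative chosen after seeing the data, 1 gene was called in Cthrc1-/- day 7 against day 0. The cause was not tested. The replicate numbers were not taken to pair the samples. Between the groups compared, correlations of deviations for the same number ran from -0.193 to 0.470 and no comparison had all 3 over 0.1, although in WT day 0 and WT day 7 each number correlated best with itself (0.078, 0.030 and 0.045). Cthrc1-/- day 0 and WT day 7, which were not compared, had 0.209, 0.110 and 0.187. With the replicate block 4 genes were called on day 0 and 7 in WT day 7 against day 0.

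Signs turned only for changes that had not passed. On day 7, the Cthrc1-/- against WT log2 change was 0.049 for Mlana and 0.023 for Mitf with total-count scaling, and Mitf had 0.034 and 0.045 by limma on log2(FPKM + 1) and log2(FPKM + 0.1). With single libraries left out, the same comparison ranged from -0.55 to 0.039 for Dct, -0.19 to 0.041 for Mitf, -0.77 to 0.37 for Mlana, -0.80 to 0.17 for Pmel, -0.70 to 0.21 for Slc24a5, -1.01 to 0.26 for Slc45a2 and -0.95 to 0.085 for Tyr. In Cthrc1-/- day 7 against day 0, Mitf had 0.019 with total-count scaling and 0.0090 and 0.012 by limma with pseudocounts of 1 and 0.1. Kit had 0.044 and 0.12 by these limma fits and 0.44 with both libraries left out. Tyrp1 had 0.53 and 0.73 by limma, 0.19 with the replicate block and 1.31 with both libraries left out. Single libraries left out gave -0.61 to 0.44 for Kit, -0.26 to 1.65 for Mlana and -0.71 to 1.31 for Tyrp1. A fit of the interaction to the compared groups alone is the reported fit, as it uses all 4 groups. Depth limited the values of Slc45a2, Oca2 and Slc24a5 in WT day 0, which rested on at most 55 counts.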
